A study of Sus scrofa with 34 samples.

Results

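The 7 genes described here are FGF21, ANGPTL4, PDK4, CREB3L3, UCP2, VNN1 and ACOT8, which are known as fasting-type signals, metabolic switches and secreted liver factors under the nuclear receptor PPAR-alpha. They were chosen by name as the rows of the count tables whose Ensembl pig gene carries one of these symbols, and each name matched 1 of the 25880 genes. RNA was sequenced from liver and ileum of weaned crossbred piglets (Landrace × Large White sows, Pietrain boar) that ate freely from 1 of 4 diets. The diets were a basal feed (Control), the basal feed with an essential-oil phytogenic additive (PFA), the basal feed with oxidized rapeseed oil (OO), and the feed with both (OO + PFA). The labels give day 28 for all libraries. Liver libraries came from 6 Control, 6 PFA, 6 OO and 5 OO + PFA pigs, and ileum libraries from 5 Control and 5 PFA pigs, whose livers were sequenced too. A further OO + PFA liver, of pig OP-77, was left out of the comparisons. The study left out an OO + PFA liver for suspected RNA degradation and does not name it, and OP-77 was taken to be that liver because it has the lowest share of mapped reads in the mapping table of the study.

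The pigs of a diet shared 1 pen, so diet and pen cannot be told apart, and p-values measure the spread between pigs of 1 pen. The oil diets carried oxidized oil with no fresh oil in its place in the Control feed, so oxidation and added fat cannot be told apart either. The oil also took the place of part of the other ingredients, protein and amino acids among them, and raised the calculated energy of the feed. The study reports slower growth of the pigs fed the oil. None of these can be told apart from oxidation in the comparisons of oil. No fasted pigs were among these samples. The libraries held 18738055 to 42446834 read pairs on genes. All 10 hepatocyte markers had at least 10 counts in every liver library, and all 8 enterocyte markers did so in every ileum library. Of the 10 hepatocyte markers, 4 also had at least 10 counts in every ileum library, and 1, TTR, was at 0 in all of these libraries. The sum of the 10, in CPM (read pairs scaled to library size), was 4144 to 9122 in Control ileum and 4829 to 7568 in PFA ileum. In Control livers it was 90270 to 166600 CPM. Which cells of the ileum gave the reads of these markers was not tested. In bulk tissue, fewer cells of a type and less RNA per cell cannot be told apart.

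PPAR-alpha is a fatty acid sensor of the hepatocyte. During fasting, fatty acids released from adipose tissue activate it, and it switches on fatty acid oxidation and ketone body formation together with secreted factors that signal to other tissues. FGF21 is the endocrine fibroblast growth factor among them, and its gene is also a target of the amino acid response factor ATF4. ANGPTL4 is a secreted inhibitor of lipoprotein lipase, and CREB3L3 (CREB-H) is a membrane-bound transcription factor of the liver and gut that cooperates with PPAR-alpha. PDK4 is the kinase that shuts off pyruvate dehydrogenase and so spares glucose. UCP2 is a mitochondrial carrier, VNN1 a pantetheinase that releases cysteamine, and ACOT8 a peroxisomal acyl-CoA thioesterase.

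The sequences just upstream of FGF21 and CREB3L3 are shown because these 2 genes were called in each pairwise comparison of a diet with oil against Control or PFA that was tested. Each run is the 300 bases before the annotated gene start on the pig assembly Sscrofa11.1, read 5′ to 3′ on the strand of the gene. FGF21 lies on chromosome 6 (54082653 to 54084532, plus strand, ENSSSCG00000003140) and CREB3L3 on chromosome 2 (74578471 to 74588269, minus strand, ENSSSCG00000013501). Positions and sequence are those of RefSeq. Capitals mark the direct repeat in both runs and the amino acid response element in FGF21, which are described after them.
FGF21, chr6:54082353-54082652 (plus strand): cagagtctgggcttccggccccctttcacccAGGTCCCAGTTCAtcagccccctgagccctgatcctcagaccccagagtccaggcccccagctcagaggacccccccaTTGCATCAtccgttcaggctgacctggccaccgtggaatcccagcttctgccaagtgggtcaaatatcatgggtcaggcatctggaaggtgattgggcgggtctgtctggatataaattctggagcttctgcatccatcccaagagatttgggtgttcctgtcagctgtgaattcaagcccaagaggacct
CREB3L3, chr2:74588270-74588569 (minus strand): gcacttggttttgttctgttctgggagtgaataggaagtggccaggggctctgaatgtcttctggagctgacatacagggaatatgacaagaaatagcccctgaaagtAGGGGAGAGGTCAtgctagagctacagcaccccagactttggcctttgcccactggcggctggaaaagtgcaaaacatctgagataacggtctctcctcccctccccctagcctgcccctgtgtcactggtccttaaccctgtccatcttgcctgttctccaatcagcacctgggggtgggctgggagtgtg

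A direct repeat of the nuclear receptor hexamer with 1 spacer base (AGGTCANAGGTCA, both strands, at most 2 mismatches) is the form to which PPAR-alpha and RXR are known to bind. It was found in these windows of 2 of the 7 genes, FGF21 and CREB3L3, and in 3.37% of 20593 pig promoters of the same length. In FGF21 the match AGGTCCCAGTTCA lies 269 to 257 bases before the start, and in CREB3L3 the match AGGGGAGAGGTCA lies 192 to 180 bases before it. The hexamer AGGTCA itself, which is part of the repeat in CREB3L3 and lies on the opposite strand 172 to 167 bases before the start of FGF21, was present without mismatch in the same 2 genes and in 14.6% of all promoters. An amino acid response element (TGATGNAA) was found in FGF21 alone, on the opposite strand 191 to 184 bases before the start (TTGCATCA as printed), and in 3.3% of all promoters. These matches are descriptions of letters in the window.

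Across the 4 liver diets, 3 of the 7 genes passed the test (edgeR quasi-likelihood F-test, Benjamini-Hochberg adjusted p of at most 0.05 over 13831 genes), against 3.66% of all genes tested. They were CREB3L3 (adjusted p = 9.66e-06), FGF21 (adjusted p = 0.00713) and ANGPTL4 (adjusted p = 0.0367). UCP2 (adjusted p = 0.157), ACOT8 (adjusted p = 0.167), VNN1 (adjusted p = 0.29) and PDK4 (adjusted p = 0.772) did not pass. All 7 genes passed the filter on low counts in liver. The genes with differences were thus the endocrine factor, the lipase inhibitor and the transcription factor, while the pyruvate dehydrogenase kinase was the gene farthest from a call.

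**Figure D1:**
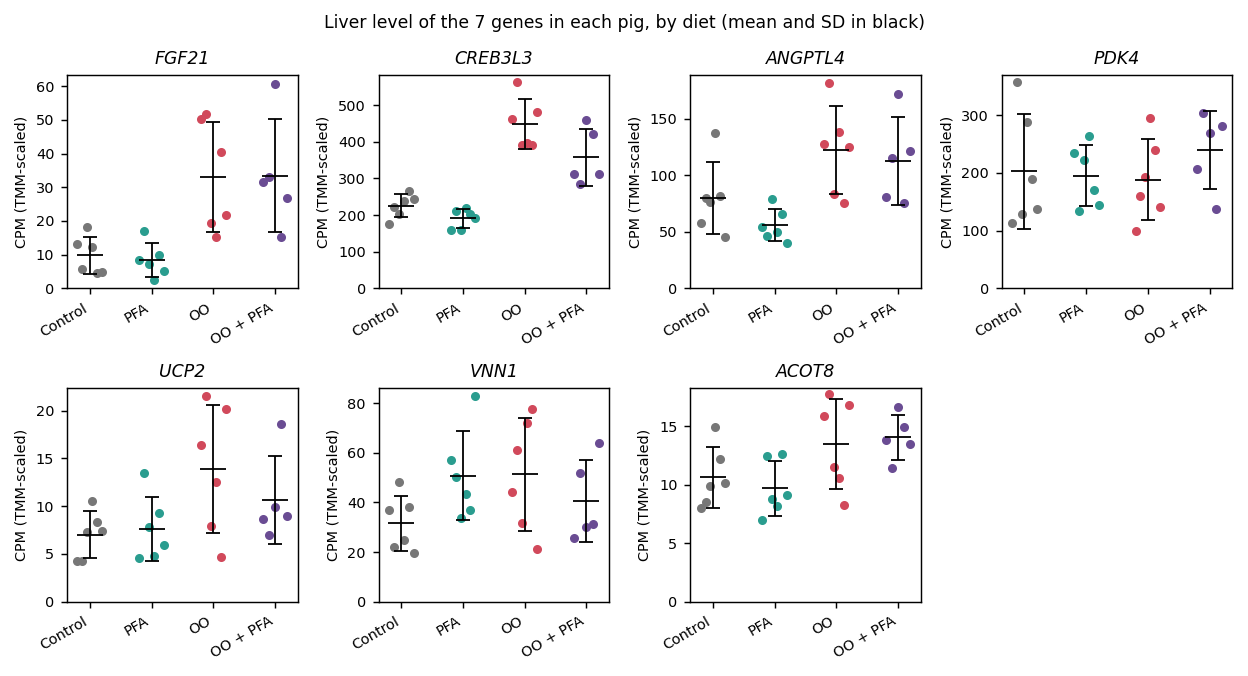
Liver level of each of the 7 genes by diet, in CPM (TMM-scaled), with 1 point per pig and the mean and SD in black. All OO and OO + PFA pigs lie above all Control and PFA pigs for CREB3L3, most of them do for FGF21, and the PDK4 groups overlap throughout.

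FGF21 was several-fold higher in both oil-fed groups. Levels are given in CPM, read pairs scaled to the size of each library. In Control livers FGF21 ranged from 4.41 CPM in pig C-85 to 18.2 CPM in pig C-71, with a median of 8.96 CPM. In PFA livers it ranged from 2.38 to 17.2 CPM, with a median of 7.82 CPM. In OO livers the lowest value was 15.2 CPM, the median 31.2 CPM and the highest 51.7 CPM. The OO + PFA livers held 15.2, 26.7, 31.6, 33.1 and 60.5 CPM. The groups overlapped by few pigs, since 5 of 6 OO pigs and 4 of 5 OO + PFA pigs exceeded every Control pig.

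Against Control, FGF21 rose 3.41-fold in OO livers (log2 fold change 1.77, SE 0.44, edgeR adjusted p = 0.0305) and 3.44-fold in OO + PFA livers (1.78, SE 0.45, edgeR adjusted p = 0.0297). These comparisons share the 6 Control pigs. OO + PFA against PFA, which shares no pig with OO against Control, gave a 4.01-fold rise (log2 fold change 2.005, edgeR adjusted p = 0.0252). The FGF21 call in OO against Control was lost when any 1 of pigs C-80, C-85, C-92, C-110, OO-102 or OO-130 was left out, with log2 fold changes of 1.60 to 2.04 and edgeR adjusted p of 0.0194 to 0.0865 over all 12 pigs. The FGF21 call in OO + PFA against Control was lost without C-85, C-100, C-110, OP-126 or OP-137 (log2 fold change 1.45 to 2.06, edgeR adjusted p 0.0331 to 0.0751). That in OO + PFA against PFA was lost without P-67, P-95, P-107 or OP-137 (log2 fold change 1.68 to 2.35, edgeR adjusted p 0.0111 to 0.0986).

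A library measure differed between OO and Control livers. The share of read pairs that fell on no gene was 10.9 to 17.4% in Control livers and 7.23 to 10.5% in OO livers, ranges that do not overlap, and it was 6.53 to 11.8% in PFA and 9.83 to 12.8% in OO + PFA livers. With this share as a term, the log2 fold change of FGF21 in OO against Control was 1.83 with an edgeR adjusted p of 0.268, and that in OO + PFA against PFA was 1.98 with an adjusted p of 0.0585. In OO + PFA against Control FGF21 kept its call with this term (log2 fold change 1.80, edgeR adjusted p = 0.0469).

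CREB3L3 separated the oil-fed pigs from the others without overlap. Its level was 177 to 265 CPM in Control livers (median 231) and 159 to 219 CPM in PFA livers (median 198). In OO livers the lowest value was 391 CPM, the median 430 CPM and the highest 564 CPM. The OO + PFA livers held 284, 311, 313, 420 and 459 CPM. Every oil-fed pig lay above every pig without oil. How many of all genes separate the pigs in this way was not counted, so the separation is not known to be particular to CREB3L3.

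CREB3L3 rose 1.99-fold in OO against Control (log2 fold change 0.99, SE 0.14, edgeR adjusted p = 1.56e-04) and 1.59-fold in OO + PFA against Control (0.67, SE 0.14, edgeR adjusted p = 0.0166). It rose 1.87-fold in OO + PFA against PFA (log2 fold change 0.91, edgeR adjusted p = 0.00122). No single library decided the CREB3L3 calls. Leaving out each pig in turn gave edgeR adjusted p of 1.87e-04 to 7.57e-04 for OO, 0.0169 to 0.0453 for OO + PFA against Control and 0.00105 to 0.00622 for OO + PFA against PFA. With the share of pairs on no gene as a term, CREB3L3 kept its call in OO against Control (edgeR adjusted p = 0.00922) and in OO + PFA against PFA (edgeR adjusted p = 0.00367).

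In OO against Control, FGF21 and CREB3L3 were 2 of 7 genes called, against 2.71% of all genes. The same 2 were called in OO + PFA against Control, against 5.08% of all genes, and in OO + PFA against PFA the same 2 again, against 1.58% of all genes. Within diets, the levels of FGF21 and CREB3L3 had a Pearson's r of -0.066 over the 23 livers (rho -0.041, permutation p = 0.774, adjusted p = 0.812 over the 21 pairs of these genes).

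**Figure D2:**
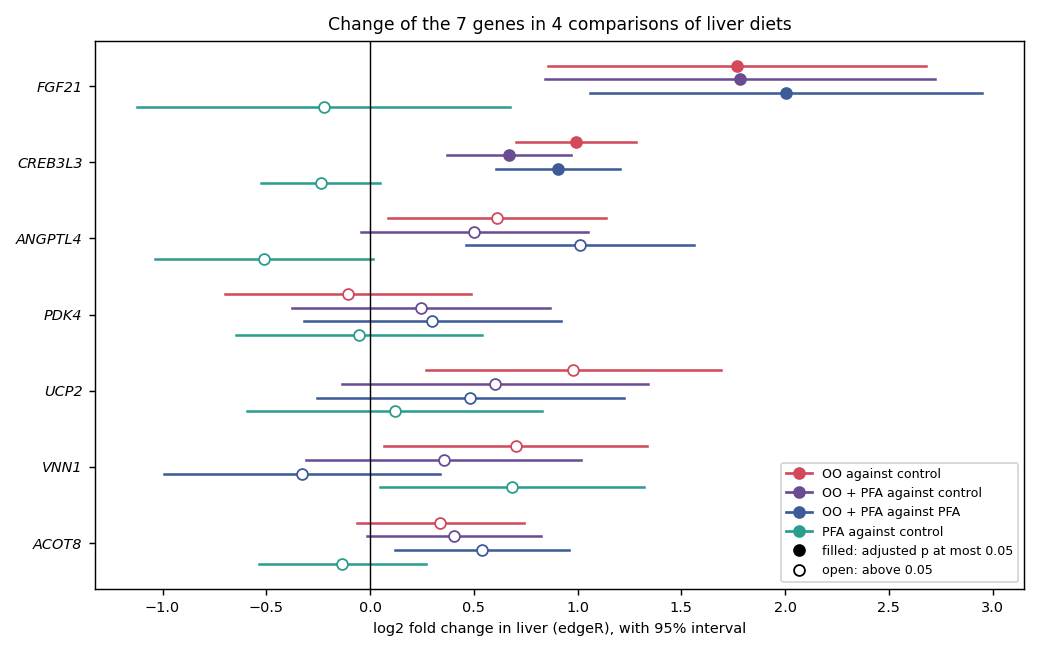
Log2 fold change of the 7 genes in 4 comparisons of liver diets, with 95% intervals from edgeR. FGF21 and CREB3L3 lie to the right of 0 in the 3 comparisons with and without oil, and the intervals of PDK4 include 0.

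ANGPTL4, the lipase inhibitor, was called across the 4 diets and, by edgeR, in none of the pairwise comparisons. Control livers ranged from 45.5 to 138 CPM (median 78.2), PFA livers from 40.3 to 79.4 CPM (median 52.0) and OO livers from 75.7 to 182 CPM (median 126.4). The OO + PFA livers held 75.5, 80.7, 115, 121 and 172 CPM. Control pigs C-71, C-80, C-85 and C-110 lay within the range of the oil-fed pigs, and 5 of 6 OO pigs and 4 of 5 OO + PFA pigs lay above every PFA pig. The ANGPTL4 log2 fold change was 0.61 in OO against Control (edgeR adjusted p = 0.165), 0.50 in OO + PFA against Control (edgeR adjusted p = 0.268) and 1.01 in OO + PFA against PFA (edgeR adjusted p = 0.0514). The last of these passed when P-138, OP-79 or OP-105 was left out, with a lowest edgeR adjusted p of 0.033 for ANGPTL4. It also passed in DESeq2 (adjusted p = 0.0133), with all 24 livers (edgeR adjusted p = 0.0253), with the library title form as a term (edgeR adjusted p = 0.0361), with the 2 diets alone (edgeR adjusted p = 0.0258) and with at least 10 counts in every library (edgeR adjusted p = 0.0467).

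Both oil diets were also set together against both diets without oil, a contrast chosen after seeing the data, which called 11.8% of all genes and 4 of the 7. FGF21 rose by a log2 fold change of 1.89 (edgeR adjusted p = 6.15e-04), CREB3L3 by 0.95 (edgeR adjusted p = 1.55e-06), ANGPTL4 by 0.81 (edgeR adjusted p = 0.00854) and ACOT8 by 0.44 (edgeR adjusted p = 0.0439). The calls of FGF21, CREB3L3 and ANGPTL4 held with each of the 23 livers left out in turn. With the GC slope of the library as a term, which is described further on, ANGPTL4 lost its call (log2 fold change 0.59, edgeR adjusted p = 0.0797) and so did ACOT8 (0.19, edgeR adjusted p = 0.428). DESeq2 called 5 of the 7 and 2211 genes in all in this contrast, UCP2 being the added 1 of the 7. The edgeR call of ACOT8 was lost in 15 of the 23 fits that leave out a liver, with a highest edgeR adjusted p of 0.0871. UCP2 had a pooled log2 fold change of 0.73 (edgeR adjusted p = 0.0561) and passed when C-80, P-134, OO-74 or OO-97 was left out (lowest edgeR adjusted p for UCP2 0.0141).

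PDK4 is among the best known fasting genes of the liver, and its level did not separate the diets. Control livers ranged from 114 to 357 CPM (median 163), PFA livers from 134 to 264 CPM (median 196) and OO livers from 99.7 to 294 CPM (median 176). Values in the 5 OO + PFA livers were 137.4, 207, 270, 281 and 304 CPM. The groups overlapped throughout. Its log2 fold change was -0.11 in OO against Control (95% interval -0.70 to 0.49, edgeR adjusted p = 0.861) and 0.25 in OO + PFA against Control (95% interval -0.38 to 0.87, edgeR adjusted p = 0.696). Of the 12 tested genes of pyruvate dehydrogenase and its regulators, 1 rose in OO and in OO + PFA against Control. It was MPC2, a subunit of the mitochondrial pyruvate carrier (log2 fold change 0.89, edgeR adjusted p = 3.26e-05, and 0.55, edgeR adjusted p = 0.0144). PDK2, another kinase of the same enzyme, had log2 fold changes of 0.12 and -0.20, with edgeR adjusted p of 0.729 and 0.58.

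UCP2 was low and spread widely within diets. Control livers ranged from 4.22 to 10.5 CPM (median 7.35), PFA livers from 4.54 to 13.4 CPM (median 6.85) and OO livers from 4.72 in pig OO-97 to 21.5 CPM (median 14.4). The OO + PFA livers held 6.98, 8.65, 8.94, 9.94 and 18.7 CPM, the last in pig OP-79. In OO livers, 4 of 6 pigs lay above all Control pigs, and the log2 fold change of UCP2 was 0.98 (edgeR adjusted p = 0.107). UCP2 passed in OO against Control when OO-97 was left out (edgeR adjusted p = 0.0287). UCP2 is abundant in macrophages and other leukocytes. The summed level of 10 macrophage and Kupffer cell markers was 337 to 1404 CPM in Control livers and 940.4 to 1406 CPM in OO livers, and none of the 10 passed in OO against Control, where all 10 fold changes were above 0. Within diets, UCP2 had a Pearson's r of 0.213 with this macrophage sum and of 0.454 with the sum of lymphocyte markers over the 23 livers, as a description. The lymphocyte value does not stand out, since r was 0.474 with adipocyte, 0.467 with muscle and -0.701 with hepatocyte markers. With enterocyte, pancreas, and cholangiocyte and stellate cell markers r was -0.252, -0.197 and -0.218. The part of any of these cell types in the UCP2 values was not tested.

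VNN1 and ACOT8 did not pass in any pairwise comparison of liver diets. VNN1 ranged from 19.7 to 48.1 CPM in Control livers (median 30.8) and from 21.1 to 77.8 CPM in OO livers (median 52.8), a log2 fold change of 0.70 (edgeR adjusted p = 0.188). In PFA livers VNN1 was 33.7 to 83.0 CPM (median 46.9), and all 6 PFA pigs lay above the Control mean. VNN1 in the 5 OO + PFA livers was at 25.5, 29.9, 31.2, 51.7 and 63.8 CPM. ACOT8 ranged from 7.98 to 15.0 CPM in Control, from 6.94 to 12.6 CPM in PFA and from 8.27 to 17.7 CPM in OO livers. ACOT8 in the 5 OO + PFA livers was at 11.4, 13.5, 13.8, 14.9 and 16.6 CPM. Its log2 fold changes were 0.34 in OO (edgeR adjusted p = 0.32) and 0.40 in OO + PFA (edgeR adjusted p = 0.239), both against Control.

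Levels can be set between genes only per length, here that of the RefSeq exons of a gene. In Control livers CREB3L3 was the most abundant of the 7 at 114 ± 15.9 CPM per kb (SD, n = 6). PDK4 (57.0 ± 27.9) and ANGPTL4 (43.9 ± 17.4) followed, with means closer than the SD of either. VNN1 stood at 19.2 ± 6.75, FGF21 at 12.4 ± 7.13, ACOT8 at 8.82 ± 2.14 and UCP2 at 5.18 ± 1.81 CPM per kb, and FGF21 overlapped both of its neighbours within its SD. In OO livers FGF21 reached 42.2 ± 20.7 CPM per kb, next to PDK4 at 52.9 ± 19.8 and above VNN1 at 31.2 ± 13.8, while CREB3L3 stood at 226 ± 34.7 (SD, n = 6). Between pigs FGF21 was the most variable of the 7, with a 25.5-fold span over the 23 livers, where that of ACOT8 was 2.56-fold.

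Other genes under PPAR-alpha moved in the oil-fed livers. Of 25 such genes tested, which leave out the 7, 17 rose and 0 fell in OO against Control, with a median log2 fold change of 1.09 where the median over all genes was 0.0597. In OO + PFA, 15 rose and 0 fell against Control (median 0.752, all genes -0.00926), and 9 rose and 0 fell against PFA (median 0.723, all genes 0.0027). This list was written with earlier results of these data known. It holds CPT1A, CPT2, PEX11A, FABP3 and MGLL, which the study named from the same livers. The share that rose is therefore a description and not an independent test of PPAR-alpha targets. CPT1A and CPT2, which carry fatty acids into mitochondria, and ACADVL, which starts the oxidation of long chains there, were among the highest ranked. In OO against Control the log2 fold change was 1.60 for CPT1A (edgeR adjusted p = 4.93e-07), 1.44 for ACADVL (edgeR adjusted p = 5.34e-06), 1.31 for PEX11A of the peroxisome (edgeR adjusted p = 3.17e-05) and 1.44 for CPT2 (edgeR adjusted p = 3.26e-05). PPARA, the receptor itself, had log2 fold changes of -0.64 and 0.09 in OO and OO + PFA against Control (edgeR adjusted p = 0.196 and 0.896).

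FGF21 acts on cells through FGF receptors with the co-receptor KLB, and the liver RNA of these genes is no measure of FGF21 action. None of the 5 receptor genes passed in OO or OO + PFA against Control. KLB had log2 fold changes of -0.37 and -0.59 (edgeR adjusted p = 0.404 and 0.17) and FGFR4, the main receptor of hepatocytes, -0.38 and -0.40 (edgeR adjusted p = 0.117 and 0.0998). FGF19, the ileal endocrine relative of FGF21, was not tested in liver because of low counts.

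The integrated stress response is another known input to FGF21. Of its 10 tested genes, 2 rose and 0 fell in OO against Control, with a median log2 fold change of 0.433. They were ASNS, the asparagine synthetase (log2 fold change 1.56, edgeR adjusted p = 1.52e-04), and TRIB3, a pseudokinase (1.64, edgeR adjusted p = 0.0166). Against Control, 3 rose in OO + PFA livers, ASNS (1.45, edgeR adjusted p = 0.00104), the transcription factor ATF5 (1.22, edgeR adjusted p = 0.0181) and TRIB3 (1.46, edgeR adjusted p = 0.0309). Against PFA, 3 rose in OO + PFA livers, ASNS (1.24), PPP1R15A (1.42) and ATF3 (2.44). Among 14 other hepatokines, GDF15, a stress-induced cytokine, rose in OO (log2 fold change 1.91, edgeR adjusted p = 0.0473) and in OO + PFA (2.93, edgeR adjusted p = 0.00432) against Control, from a mean of 0.208 CPM in Control livers. Against PFA, GDF15 (3.85), FST (1.51) and IGFBP1 (2.79) rose in OO + PFA livers.

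ANGPTL4 works on lipoprotein lipase, whose own gene LPL was not tested in liver because of low counts and stood at 103 ± 18.2 CPM in Control ileum (SD, n = 5). Of 6 tested genes around this lipase, 0 passed in OO and 3 rose in OO + PFA against Control. They were LIPG (log2 fold change 1.71), APOA4 (3.32) and LMF1 (1.19). All 6 had a log2 fold change above 0 in OO against Control (median 0.799), and 0 of the 6 passed in OO + PFA against OO. APOA4 ran from 16.8 to 675 CPM over the 5 OO + PFA pigs. None of the 6 tested angiopoietin-like genes, ANGPTL4 among them, passed in either comparison.

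CREB3L3 has relatives and activating proteases, of which 5 were tested. CREB3L1 rose (log2 fold change 1.21, edgeR adjusted p = 0.0245) and CREB3L2 fell (-0.75, edgeR adjusted p = 0.00199) in OO against Control, and CREB3L1 rose in OO + PFA against Control (1.12, edgeR adjusted p = 0.0347). Beside VNN1, 1 of 6 tested genes of pantetheinases and coenzyme A synthesis rose in OO, the pantothenate kinase PANK1 (0.74, edgeR adjusted p = 0.0459). In OO + PFA against Control 0 of the 6 did so, and 0 passed in OO + PFA against OO. Beside ACOT8 none of 6 acyl-CoA thioesterases passed, and beside UCP2 neither of 2 related carriers did.

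The wider fasting response was tested in the same livers. Of 16 genes of the fasting and glucagon response, 0 passed in OO against Control, with a median log2 fold change of -0.102 (all genes 0.0597). In OO + PFA against Control 5 rose, with a median of 0.378 (all genes -0.00926). The direct test of OO + PFA against OO called 0 of the 16, and so did the interaction. Among the 5 that rose in OO + PFA against Control, the 4 with the lowest p were SIK1 (2.62), TAT (1.42), IRS2 (2.78) and KLF15 (1.23). Against PFA, 5 rose in OO + PFA livers, led by SIK1 (3.02), PCK1 of gluconeogenesis (2.47), TAT (1.49) and KLF15 (1.33). Of 12 genes of the insulin and feeding response, 3 fell in OO (PKLR -1.06, THRSP -0.97, ACACA -0.75), and these 3 fell in OO + PFA against Control as well (PKLR -0.94, THRSP -1.13, ACACA -0.84). Of 8 PPAR receptors and partners, 0 passed in OO and NCOR1 rose in OO + PFA against Control (0.66). In OO + PFA against OO 0 of the 8 passed.

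Markers of other cell types were set beside these values. PLIN1 of the adipocyte lipid droplet rose in OO (log2 fold change 1.79) and OO + PFA (1.82) against Control, as 1 of 3 adipocyte markers tested, with LEP at 0 in every liver. The summed level of 5 adipocyte markers was 2.19 to 4.48 CPM in Control and 4.67 to 13.2 CPM in OO livers. Of 10 hepatocyte markers SERPINA1 fell in OO (-1.25). Lymphocyte, enterocyte, muscle, pancreas, and cholangiocyte and stellate cell markers had 0 calls in OO or OO + PFA against Control. Of 11 lymphocyte marker genes, 9 had a higher mean in OO (median log2 fold change 0.31) and all 11 a lower one in OO + PFA (median -0.592) against Control, and their summed level was 68.5 to 132.8 CPM in Control, 71.8 to 149.5 CPM in OO and 58.9 to 99.9 CPM in OO + PFA livers. Within diets, the summed hepatocyte markers had a Pearson's r of -0.701 with UCP2 and -0.669 with ACOT8, and of -0.336 to 0.423 with the rest of the 7. The part of any of these in the 7 genes was not tested.

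The additive alone gave no call. In PFA against Control 0 of 7 genes passed, against 0% of all genes (edgeR), and DESeq2 called 0 of the 7 and 18 genes in all. Without adjustment 1 of the 7, VNN1, was under 0.05 in edgeR, and of all 13831 genes tested 1522 were. The VNN1 log2 fold change was 0.68 (edgeR adjusted p = 0.437). In OO + PFA against OO, which asks what the additive did on top of the oil, 0 of 7 passed against 0% of all genes, and DESeq2 called 0 of the 7 and 31 genes in all. Without adjustment 1 of the 7, CREB3L3, was under 0.05 in edgeR, and of all 13831 genes tested 1176 were. The CREB3L3 log2 fold change was -0.33 (95% interval -0.63 to -0.02, edgeR adjusted p = 0.572). For FGF21 this difference was 0.01 with a 95% interval of -0.91 to 0.93, which leaves room for a change of nearly 1 log2 unit either way.

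The interaction asks whether the oil difference was the same with and without the additive. It called 0 of 7 genes, against 0% of all genes (edgeR), while DESeq2 called 0 of the 7 and 150 genes in all. VNN1, the only 1 of the 7 under 0.05 without adjustment, had an edgeR p of 0.0298 with an interaction of -1.03 on the log2 scale (SE 0.45, adjusted p = 0.319), since it was higher in OO than in Control and lower in OO + PFA than in PFA. Of all 13831 genes tested, 1881 were under 0.05 in the same way. FGF21 had an interaction of 0.24 and CREB3L3 of -0.09 on the log2 scale (edgeR adjusted p = 0.898 and 0.878).

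In the ileum FGF21 was near the counting floor. Its counts were 0 to 4 in the 5 Control and 1 to 5 in the 5 PFA libraries, 14 and 11 counts in all, and it did not pass the filter there. The 0 counts in pig C-92 allow a level of up to 0.158 CPM (3 counts), which covers counting error only. The other 6 genes were tested in PFA against Control ileum, and 0 passed, against 0% of all 14300 genes tested (edgeR), while DESeq2 called 0 of the 6 and 4 genes in all. Without adjustment, 401 of the 14300 genes were under 0.05 in edgeR. ANGPTL4, the only 1 of the 6 under 0.05 without adjustment, had an edgeR p of 0.0141. It stood at 20.4, 26.9, 32.4, 35.5 and 37.4 CPM in Control and at 11.7, 11.97, 14.2, 25.5 and 26.0 CPM in PFA ileum, a log2 fold change of -0.77 (SE 0.27, adjusted p = 0.991). The groups overlapped, with 3 of 5 PFA pigs below all Control pigs.

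Liver and ileum of the same 10 pigs were compared in 1 fit with TMM scaling over both tissues. This fit held a diet term and no pig term, so the pairing by pig was not used in its intervals and p-values. Of the 7 genes 6 passed, against 78.3% of all genes tested, all 6 higher in liver. FGF21 was 176.8-fold higher in liver (95% interval 104.6 to 298.8, edgeR adjusted p = 2.36e-14). PDK4 was 24.1-fold, ANGPTL4 6.22-fold, CREB3L3 3.99-fold and ACOT8 1.84-fold higher in liver. VNN1 was 1.53-fold higher (edgeR adjusted p = 0.0423), and its call was lost in 6 of 10 fits that leave out a pig, those without C-71, C-80, C-100, P-75, P-95 or P-134 (highest edgeR adjusted p for VNN1 0.144). UCP2 was the exception at 0.921-fold (95% interval 0.6 to 1.41, edgeR adjusted p = 0.724). With a share of this size in the background, a call here sets none of the 7 apart, and the sizes are what differ.

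**Figure D3:**
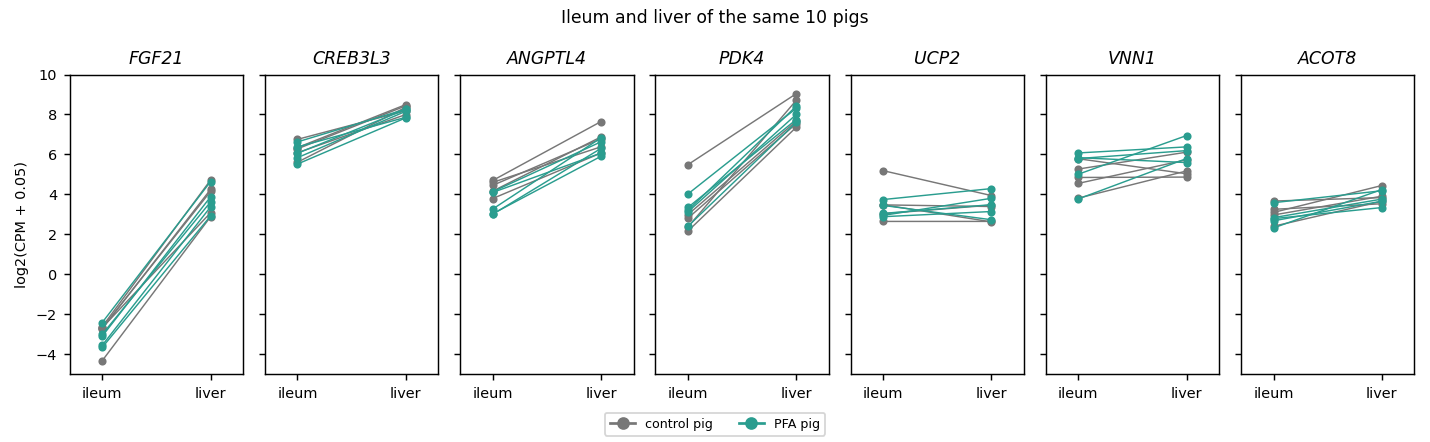
Level of the 7 genes in ileum and liver of the same 10 pigs on a log2 scale, with 1 line per pig. The FGF21 lines are the steepest, the CREB3L3 lines all rise towards liver, and the UCP2 lines run in both directions.

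Pigs of 1 diet differed in these genes together only in part. Of the 21 pairs of the 7 genes, 12 had a positive Pearson's r over the 23 livers after the diet means were removed. A permutation test within diets called 3 (100000 permutations, two-sided, adjusted over the 21 pairs). How many pairs of other genes would pass was not counted, so these calls are not known to be particular to the 7 genes. UCP2 and ACOT8 had r = 0.882 (rho 0.849, permutation p = 1e-05, the smallest these permutations can give, adjusted p = 2.1e-04). CREB3L3 and ACOT8 had r = 0.701 (rho 0.708, permutation p = 2.8e-04, adjusted p = 0.00294), and CREB3L3 and UCP2 had r = 0.609 (rho 0.639, permutation p = 0.00294, adjusted p = 0.0206). Without the 2 livers farthest from the median, r was 0.838, 0.673 and 0.639. With the library title form removed as well, CREB3L3 and UCP2 lost the call (r = 0.579, permutation adjusted p = 0.0544), and VNN1 and ACOT8 gained one (r = -0.565, permutation adjusted p = 0.0429). FGF21 was in none of the pairs called, and its highest r was 0.323, with ANGPTL4 (rho 0.326, permutation p = 0.157, adjusted p = 0.33).

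**Figure D4:**
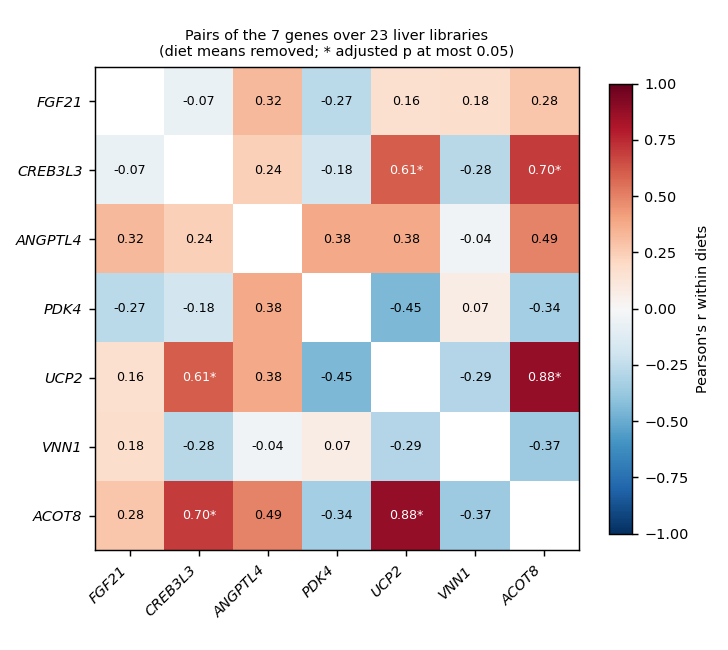
Pearson's r between pairs of the 7 genes within diets over 23 livers, with a star on the pairs called. The 3 called pairs join UCP2, ACOT8 and CREB3L3.

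A measure of the libraries moved with the same 3 genes. For each library the slope of the log2 level on the GC content of the gene was taken across genes, as a change in log2 CPM per 10% GC, a check added after seeing the data. The slopes ran from -0.225 to 0.0703 in Control, -0.484 to 0.0237 in PFA, -0.406 to 0.379 in OO and -0.00616 to 0.445 in OO + PFA livers. Within diets, the slope had r = 0.821 with UCP2 (rho 0.823, permutation p = 5e-05, adjusted p = 3.5e-04 over the 7 genes), 0.725 with ACOT8 (rho 0.698, permutation p = 0.00148, adjusted p = 0.00518) and 0.557 with CREB3L3 (rho 0.55, permutation p = 0.00691, adjusted p = 0.0161). Without the 2 farthest livers r was 0.792, 0.651 and 0.562. The other 4 genes did not pass: ANGPTL4 had r = 0.445 (rho 0.442, permutation p = 0.0486, adjusted p = 0.085) and FGF21 0.161 (rho 0.172, permutation p = 0.475, adjusted p = 0.475). The exons of UCP2 are 62.2% GC, those of ACOT8 60.8% and those of CREB3L3 57.8%, while FGF21 at 62.3% and ANGPTL4 at 62.8% are as rich. The GC-poor genes PDK4, at 39.6%, and VNN1, at 45.5%, had r = -0.374 (rho -0.346, permutation p = 0.103, adjusted p = 0.144) and r = -0.394 (rho -0.307, permutation p = 0.137, adjusted p = 0.16) with the slope. The slope is drawn from gene levels by GC content, so GC-rich genes tend to follow it and GC-poor genes to run against it by construction. How many of all genes pass the same test was not counted, so the calls are not known to be particular to these genes.

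With the slope removed as well, UCP2 and ACOT8 kept r = 0.73 (permutation adjusted p = 0.0244), while CREB3L3 and ACOT8 had 0.52 (permutation adjusted p = 0.213) and CREB3L3 and UCP2 0.321 (permutation adjusted p = 0.648), and ANGPTL4 and PDK4 now passed with 0.659 (permutation adjusted p = 0.0244). With the slope as a term in the test of diets, CREB3L3 was called in all 3 pairwise comparisons of oil. FGF21 was called in OO against Control (log2 fold change 1.66, edgeR adjusted p = 0.0277) and lost its call in OO + PFA against Control (1.60, edgeR adjusted p = 0.0636) and against PFA (1.83, edgeR adjusted p = 0.11).

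**Figure D5:**
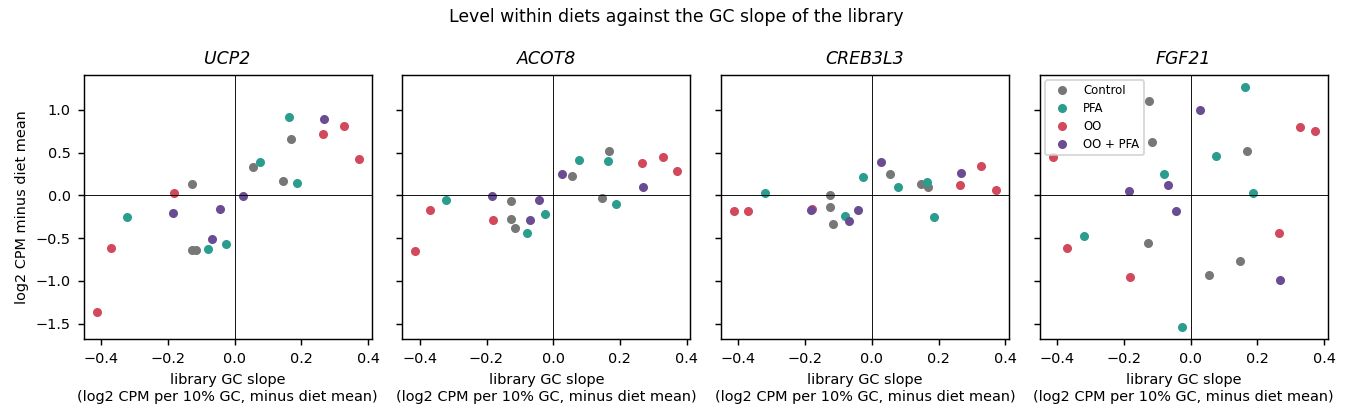
Log2 CPM minus the diet mean against the GC slope of the library minus its diet mean, with 1 point per liver. The points of UCP2 and ACOT8 rise with the slope and those of FGF21 spread without a clear trend.

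Library titles came in 2 forms, PigLiv and PL, whose meaning the labels do not give. Within the PigLiv form, FGF21 was 2.90-fold Control in OO and 2.53-fold in OO + PFA livers, and within the PL form 4.31-fold and 7.29-fold, the last from the single PL liver of that diet. CREB3L3 was 2.10-fold and 1.57-fold Control within PigLiv and 1.79-fold and 1.83-fold within PL. Both genes were thus higher with oil in each form. VNN1 was 1.02-fold and 1.36-fold Control within PigLiv but 2.24-fold and 0.951-fold within PL, and ACOT8 in OO was 1.61-fold Control within PigLiv and 0.899-fold within PL.

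The genes whose level ran most like that of each of the 7 were found by Spearman's rho over the 23 livers, as a description that holds the diet differences and the library properties that these genes share. FGF21 was nearest to G0S2 (rho 0.851), DDIT4 (0.831) and CPT2 (0.817). CREB3L3 was nearest to ILVBL (0.947), ECH1 (0.94) and ACAA1 (0.928), the last 2 being enzymes of fatty acid oxidation. ANGPTL4 was nearest to IAH1 (0.817), PMM1 (0.811) and the lipid droplet gene PLIN5 (0.796), and PDK4 to the glucocorticoid-responsive factor KLF9 (0.778), C18orf54 (0.754) and ARID5B (0.745). UCP2 was nearest to the actin-binding genes COTL1 (0.957) and CORO1A (0.949) and to GRK6 (0.944), VNN1 to SEL1L (0.757), PALS2 (0.754) and FUCA2 (0.746), and ACOT8 to MRPS18A (0.942), BLVRB (0.927) and NDUFB7 (0.921).

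The other 5 genes lie apart from each other on Sscrofa11.1 but for ANGPTL4, which shares chromosome 2 with CREB3L3 (70905767 to 70912892, minus strand), and PDK4 and UCP2, which share chromosome 9 (75246956 to 75260134 and 8358559 to 8364552, both minus strand). VNN1 lies on chromosome 1 (31003338 to 31023731, plus strand) and ACOT8 on chromosome 17 (48039627 to 48054335, minus strand). All 7 are protein-coding. UCP2 shares 59 exon bases with DNAJB13 and ACOT8 shares 7 with SNX21, both on the opposite strand, and whether the counting used strand is not given in the sources used here. The part of such reads in the UCP2 and ACOT8 counts was not tested.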

How the data were processed

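Liver and ileum RNA was sequenced as poly(A)-selected, stranded paired-end libraries. The authors aligned the reads with STAR 2.6.1d to Sscrofa11.1, counted pairs per gene with HTSeq and tested with DESeq2, whose version differs between their processing notes and methods, and the deposited values are raw counts per Ensembl gene of 1 library each. The annotation release and the strand option are not given in the sources used here. Rows that name no gene stayed out of library sizes, and symbols were matched for 14857 of 25880 genes through the RefSeq annotation of Sscrofa11.1, which also gave positions, GC content and upstream sequence.

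Here counts were scaled by TMM, filtered with filterByExpr and tested with edgeR 4.0.16 (quasi-likelihood) in R 4.3.3, with Benjamini-Hochberg adjustment over all genes kept (13831 in liver, 14300 in ileum, 14732 in both tissues) and genes were called where that p did not exceed 0.05. The 23 livers were fitted together, and each comparison was a contrast. CPM values use TMM-scaled library sizes, and log2 CPM uses a prior count of 2. Intervals are at 95%. Scripts were tested on simulated data.

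Liver and ileum came from the same 10 pigs, so the tissues are paired by pig. The deviations of a pig from its group means in both tissues correlated across genes at -0.184 to 0.46, and the pig as a block was an alternative. No 2 libraries held identical values. Alternatives were DESeq2 1.42.0, other size factors and filters, all 24 livers, library terms, the 2 diets alone, a minimum fold of 2 and each library left out in turn. The contrast of both oil diets and the GC slope were added after seeing the data.

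The 7 genes and the 23 pathway and marker lists were chosen with earlier results of these data known. Named from the lists were genes called in the comparison described, at most 4 a list by adjusted p, and KLB, FGFR4, LPL, PDK2, PPARA and ATF4 whatever their values, and for each of the 7 the 3 genes with the highest rho. ATF4 has no row under that symbol. A result of the insulin and feeding list is not reported here.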

Additional observations from a re-analysis of the deposited data

Results flagged for a closer look

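Each of the 7 genes was checked in each of the 6 groups, 42 checks in all, for a pig far from the rest by Dixon's rule, and 4 were found. Chance finds about 1 in 20. In Control ileum, PDK4 was 67.4 CPM in pig C-110 where the others held 6.51 to 11.6 CPM. The same pig had the highest PDK4 of the Control livers, 357 CPM. In Control ileum, UCP2 was 52.6 CPM in pig C-80 where the others held 9.34 to 16.4 CPM. In OO + PFA liver, UCP2 was 18.7 CPM in pig OP-79 where the others held 6.98 to 9.94 CPM. In Control ileum, FGF21 was 0 CPM in pig C-92 where the others held 0.149 to 0.167 CPM, which are 3 to 4 counts.

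The OO + PFA liver of pig OP-77, which enters no comparison, lay above all Control livers for 5 of the 7 genes on a scale over 24 livers. It held 70.1 CPM of FGF21, 142 CPM of ANGPTL4, 485.8 CPM of CREB3L3, 36.1 CPM of UCP2 and 28.1 CPM of ACOT8. PDK4 at 113 CPM and VNN1 at 4.55 CPM did not. This library had the lowest depth of all, 18738055 pairs on genes. It stood apart in other measures too: 23.2% of its pairs were not uniquely placed where the other livers held at most 11.6%, its 10 most abundant genes took 48.3% of its counts, its GC slope was the highest at 0.634, and its hepatocyte markers summed to 38520 CPM where the other livers held at least 90270 CPM. Its muscle markers summed to 270.2 CPM. Their part in its values was not tested.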

How the results depend on the processing

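The counts of changed values given first do not include the fits that leave out a library, which are described apart. Of the planned values for single genes, 376 kept their direction and side of the threshold, 6 gained a call, 4 lost one and 7 changed sign. Of the added ones 86 kept both, 3 gained, 7 lost and 8 changed sign. Where a cause is not named, the cause was not tested. A minimum fold of 2 left 1 of the 7 genes in OO against Control, 1 in OO + PFA against Control, 1 in OO + PFA against PFA and 1 in both oil diets together. CREB3L3 changed by less in all 4, and ANGPTL4 and ACOT8 did so in the last. All 24 livers gave 4 in OO + PFA against PFA. The share of pairs on no gene as a term left 1 in OO against Control and 1 in OO + PFA against PFA. The GC slope as a term left 1 in OO + PFA against Control, 1 in OO + PFA against PFA and 2 in both oil diets together. Liver against ileum kept 6 of the 7 with the pig as a block (12042 genes called in all, and 11534 without), and the block changed no other call. At least 10 counts in every library removed FGF21 from that comparison, since its ileum counts are lower.

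The differences that changed sign had no call. With all 24 livers or a library term, the largest of them were, by their values in the report's own fits, those of UCP2 in OO + PFA against Control (0.60), against PFA (0.48) and against OO (-0.38), of PDK4 (0.41) and ANGPTL4 (0.40) in the interaction, and of PDK4 in ileum (-0.50). With all 24 livers UCP2 in OO + PFA against OO was 0.10. With the share of pairs on no gene as a term, PDK4 was 0.39 in OO against Control, 0.40 in PFA against Control, -0.28 in the interaction and 0.0797 in ileum, FGF21 in OO + PFA against OO was -0.0282 and ANGPTL4 in the interaction -0.18. With the GC slope as a term, UCP2 was -0.0452 in OO + PFA against Control and -0.30 against PFA, FGF21 and ACOT8 in OO + PFA against OO were -0.0551 and -0.0733, VNN1 in OO + PFA against PFA was 0.06, ACOT8 in the interaction -0.0175, and CREB3L3 and ACOT8 in ileum were 0.0906 and 0.0135.

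With each library left out in turn, the number of the 7 called was 2 to 4 across the 4 diets, 1 to 3 in OO against Control, 1 to 2 in OO + PFA against Control, 1 to 3 in OO + PFA against PFA, 3 to 5 in both oil diets together and 5 to 6 in liver against ileum, and 2 to 4 pairs were called. It stayed at 0 in PFA against Control, OO + PFA against OO, the interaction and ileum. Log2 fold changes that crossed 0 were those of PDK4 in OO against Control (-0.28 to 0.14), in PFA against Control (-0.18 to 0.19) and in ileum (-0.75 to 0.71). FGF21 crossed it in PFA against Control (-0.57 to 0.0499), the interaction (-0.0905 to 0.58) and OO + PFA against OO (-0.31 to 0.20). ANGPTL4 (-0.32 to 0.0371) and ACOT8 (-0.0442 to 0.16) did so in OO + PFA against OO, UCP2 in PFA against Control (-0.12 to 0.27), ileum (-0.79 to 0.0542) and liver against ileum (-0.23 to 0.14), and CREB3L3 in ileum (-0.28 to 0.0407).

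Counts over all genes, from which the background shares come, moved by more than 1.5 times. Across the 4 diets, OO against Control, OO + PFA against Control and OO + PFA against PFA, edgeR called 506, 375, 702 and 218 genes and DESeq2 1776, 1079, 1370 and 697. All 24 livers gave 1113, 224, 1530 and 1225, and the share of pairs on no gene as a term 311, 58, 405 and 136. The GC slope as a term gave 773, 1112, 602 and 93, and 463 in place of 1630 in both oil diets together. The 2 diets alone gave 194, 1690 and 963 in the 3 pairwise comparisons, and a minimum fold of 2 gave 153, 453 and 133, and 469 in both oil diets together.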
